A study of Mus musculus with 4 samples.

Results

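The Frizzled genes, Fzd1 to Fzd10, encode the family of cell-surface receptors for Wnt proteins, and all 10 were located among 21883 protein-coding genes of the mouse genome (GRCm38). Methylation at each gene was read from the authors' comparison of hair matrix keratinocytes, the dividing epithelium of the hair bulb from which the hair shaft grows. Whole-genome bisulfite libraries came from 2 samples labelled Tet2/Tet3 DKO, Krt14-Cre, and 2 labelled WT, all at postnatal day 4.5. The Krt14 promoter is active in basal cells of skin epithelium and the Cre recombinase it drives deletes in those cells and their progeny; the labels do not say whether WT mice carried Cre, nor whether each library is from an animal of its own. Each member was given a window of its gene body plus 5 kb on either side, and 80 of the 484555 listed regions overlapped the 10 windows. A region whose level was at least 20 percentage points higher in the DKO is called gained here. The authors' deposited table gives 1 mean level per genotype and region, with no value per library, no read depth and no p-value, so no difference below could be tested or set against the spread of replicates. The table's header calls the genotypes group 1 and group 2, and the table's title names WT before the DKO; group 1 was read as WT on that ground alone, and every direction would turn with the opposite order. Bisulfite reads 5-methylcytosine and 5-hydroxymethylcytosine alike, and the table holds no marker of cell identity, so the labelled cell type was not checked.

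A Frizzled receptor binds a Wnt ligand through its cysteine-rich extracellular domain and, together with Lrp5 or Lrp6, recruits Dishevelled and stabilises beta-catenin. Another branch, planar cell polarity, uses Frizzled without Lrp5 or Lrp6 to orient cells within a sheet. In skin, Wnt signalling is required for hair follicle formation and for hair shaft differentiation, and in the mouse Fzd6 sets the direction in which hairs point. Tet2 and Tet3 oxidise 5-methylcytosine, a step towards its removal. Many Frizzled genes are compact, with a CpG island over the start site.

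The promoters are shown first because their level was the same in both genotypes to within 1 percentage point while the DNA around them differed. RefSeq start sites (GRCm38.p6) were matched for 6 members, Fzd1, Fzd4, Fzd5, Fzd7, Fzd9 and Fzd10. The 250 bases before the start are printed in the direction of transcription for 4 of them, chosen to span sparse to dense CpG content, with every CpG in capitals. Their positions are chr1:59481897-59482146 on the plus strand for Fzd7, chr5:4758217-4758466 on the minus strand for Fzd1, chr7:89404116-89404365 on the plus strand for Fzd4, and chr5:135251048-135251297 on the minus strand for Fzd9.
Fzd7: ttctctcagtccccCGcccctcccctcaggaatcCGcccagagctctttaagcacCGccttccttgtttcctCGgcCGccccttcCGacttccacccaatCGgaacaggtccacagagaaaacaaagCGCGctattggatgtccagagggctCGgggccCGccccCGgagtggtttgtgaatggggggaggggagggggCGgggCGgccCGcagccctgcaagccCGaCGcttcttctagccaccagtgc
Fzd1: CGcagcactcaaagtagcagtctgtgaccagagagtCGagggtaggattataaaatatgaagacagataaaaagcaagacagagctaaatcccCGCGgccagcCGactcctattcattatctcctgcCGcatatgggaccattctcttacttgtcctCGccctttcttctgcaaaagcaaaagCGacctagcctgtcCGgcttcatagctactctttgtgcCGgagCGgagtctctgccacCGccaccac
Fzd4: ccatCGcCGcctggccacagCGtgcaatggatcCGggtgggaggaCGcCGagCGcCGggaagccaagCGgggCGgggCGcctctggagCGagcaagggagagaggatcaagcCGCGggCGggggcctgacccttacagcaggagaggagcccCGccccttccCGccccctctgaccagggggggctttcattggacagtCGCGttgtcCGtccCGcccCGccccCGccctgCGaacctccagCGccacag
Fzd9: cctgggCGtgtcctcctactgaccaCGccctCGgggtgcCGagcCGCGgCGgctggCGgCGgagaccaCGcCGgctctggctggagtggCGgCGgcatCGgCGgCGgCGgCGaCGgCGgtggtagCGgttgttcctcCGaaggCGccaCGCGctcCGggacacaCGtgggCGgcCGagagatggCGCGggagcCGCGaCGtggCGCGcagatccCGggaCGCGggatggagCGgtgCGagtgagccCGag
These 250 bases hold 17 CpGs in Fzd7, 12 in Fzd1, 25 in Fzd4 and 42 in Fzd9, against a median of 6 over 32851 promoters, and Fzd5 has 32 and Fzd10 37. The Fzd1 promoter is AT-richer than the other 5, at 51.2% G and C, against 65.2% in Fzd7 and 72.8% to 76.4% in the rest. All 250 bases lay in a region of low methylation in each of the 6 genes. In the authors' deposited table that region was at 3.95% in the DKO and 3.00% in the WT for Fzd7, and at 2.58% in the DKO and 2.66% in the WT for Fzd1. It was at 3.18% in the DKO and 3.16% in the WT for Fzd4, and at 2.64% in the DKO and 2.69% in the WT for Fzd9, by the authors' deposited table. The same region was at 2.25% in the DKO and 2.66% in the WT for Fzd5, and at 2.78% in the DKO and 2.60% in the WT for Fzd10, in the authors' deposited table. It follows that none of the 6 promoters overlapped a gained region, since listed regions do not overlap one another. Of all promoters, 3.75% did. A low region, as defined below for Fzd7, overlapped 17% of all promoters, against all 6 of these. That share was not matched for CpG content, and each of the 6 held more CpGs than the median promoter. The letters GGGCGG, read on either strand, occurred in 5 of the 6 promoters, all but Fzd1, and in 32.7% of all promoters. CCAAT on either strand occurred in 3 of the 6 and in 33.8% of all. CTTTGAT on either strand occurred in 0 of the 6 and in 3.21% of all, and the palindrome CACGTG in 1 of the 6, Fzd9, and in 6.02% of all. GGGCGG and CACGTG each hold a CpG, and none of these motifs contains another.

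Frizzled genes differed widely in how much of their surroundings was gained. Of the 80 listed regions, 34 were gained (42.5%), against 22.9% of all listed regions, and 0 were lower in the DKO by at least 20 points, against 0.0896% of all. Fzd7 came first with 6 gained regions. Fzd1, Fzd6 and Fzd3 had 5 each, Fzd10 had 4, Fzd4 and Fzd5 had 3 each, Fzd2 had 2 and Fzd9 had 1. Fzd8 had 0. At least 1 gained region thus lay in 9 of 10 windows, against 64.4% of coding genes, and in 7 of 10 gene bodies, against 52.2% of coding genes. The order by covered share of the window was different. Windows ran from 12110 bp at Fzd9 to 80023 bp at Fzd3, and the summed length of gained regions in the 9 genes that held any ran from 253 bp at Fzd9 to 3037 bp at Fzd3. Gained regions covered 17.9% of the window of Fzd1, 14.9% of Fzd7, 6.87% of Fzd4, 5.43% of Fzd6, 3.80% of Fzd3, 2.95% of Fzd10, 2.84% of Fzd5, 2.12% of Fzd2 and 2.09% of Fzd9. The mean over all coding genes was 2.67%, a value that 7 of the 10 members and 36.5% of coding genes exceeded. As many gained regions as in Fzd7 were present in 0.933% of the 8999 coding genes with a window within 1.5 times the length of its own, and as many as in Fzd1 in 2.18% of 8708. For Fzd3, whose window is the longest, that share was 50.2% of 3438 genes of like length. It was 4.52% for Fzd10, 13.9% for Fzd4, 18.1% for Fzd5, 23.7% for Fzd6, 23.9% for Fzd2 and 38.6% for Fzd9. For Fzd8, with 0 gained regions, it was 100%. Fzd7 came first by this same count, so its low share was partly built in.

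**Figure D1:**
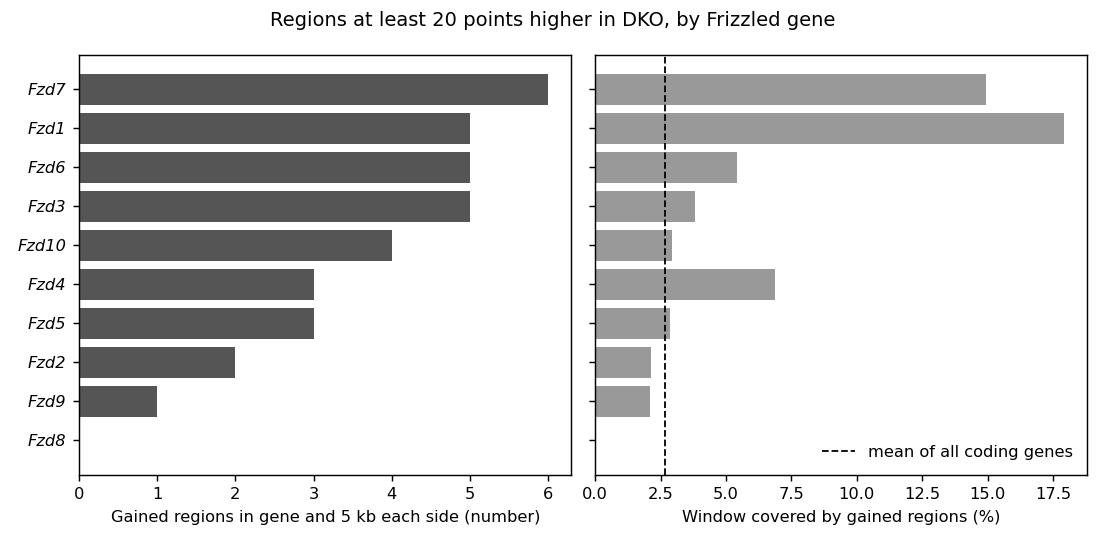
Bars give the number of gained regions (left) and the percent of the window they cover (right) for each of the 10 Frizzled genes, with the mean of all coding genes, 2.67%, as a dashed line. Fzd7 leads by number with 6, Fzd1 leads by covered share with 17.9%, and Fzd8 is at 0 in each panel.

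Fzd1, Fzd2 and Fzd7 form a subfamily of close homologues, and they held 13 of the 34 gained regions. In Fzd7, a receptor needed by intestinal stem cells in the mouse, a low region of 3774 bp and 507 cytosine positions ran from upstream of the start site into the gene. By its number of positions it ranked 44 of the 6453 low regions in the table, where low means a level under 10% in each genotype over at least 40 positions. On its upstream side, the authors' deposited table gives 86.8% in the DKO and 56.5% in the WT at chr1:59479474-59479974, 2173 bp from the start. Farther out, at chr1:59476374-59477204, it was 85.5% in the DKO and 51.5% in the WT by the authors' deposited table. These 2 upstream regions were already at intermediate levels in the WT.

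Downstream of the island, Fzd7 looked different. A region of 32 positions inside the gene, 143 bp past the low region, was at 15.8% in the DKO and 9.56% in the WT in the authors' deposited table, a difference of 6.22 points that is the nearest below the threshold in the family. The next 4 regions were all gained, and all started from a low WT level. In the authors' deposited table they were at 52.1% in the DKO and 15.7% in the WT at chr1:59486142-59486602 inside the gene, the widest gain of Fzd7 at 36.3 points, and at 49.6% in the DKO and 15.1% in the WT across the downstream gene end. They were at 49.4% in the DKO and 17.7% in the WT over a single pair of positions 1265 bp beyond the gene, and at 61.2% in the DKO and 26.1% in the WT over 967 bp starting 1625 bp beyond it, again by the authors' deposited table. Along these 5 regions the levels were lowest in both genotypes beside the island and highest at the far end.

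Fzd1 had a low region of 2278 bp and 377 positions over its start site, and gained regions on both flanks. Upstream, at chr5:4759172-4760019, the level was 78.1% in the DKO and 41.2% in the WT in the authors' deposited table, 956 bp from the start, the closest to a start site of the 22 gained regions in the 6 genes with a matched start. Inside the gene, a region of 44 positions at chr5:4755268-4755990 was at 64.1% in the DKO and 23.9% in the WT by the authors' deposited table, the most positions of any gained region in the family. The widest gain, 42.6 points, lay across the downstream end at chr5:4753811-4754577, with 78.4% in the DKO and 35.8% in the WT in the authors' deposited table. Beyond the gene, 2 short regions were at 93.6% and 94.5% in the DKO and at 61.9% and 67.4% in the WT by the authors' deposited table. Moving away from the island in the direction of transcription, each region of Fzd1 was higher than the one before it in both genotypes. By contrast, 3 regions farther upstream were at 85.8% to 93.04% in the DKO and 82.0% to 92.0% in the WT in the authors' deposited table, and differed by at most 3.83 points.

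**Figure D2:**
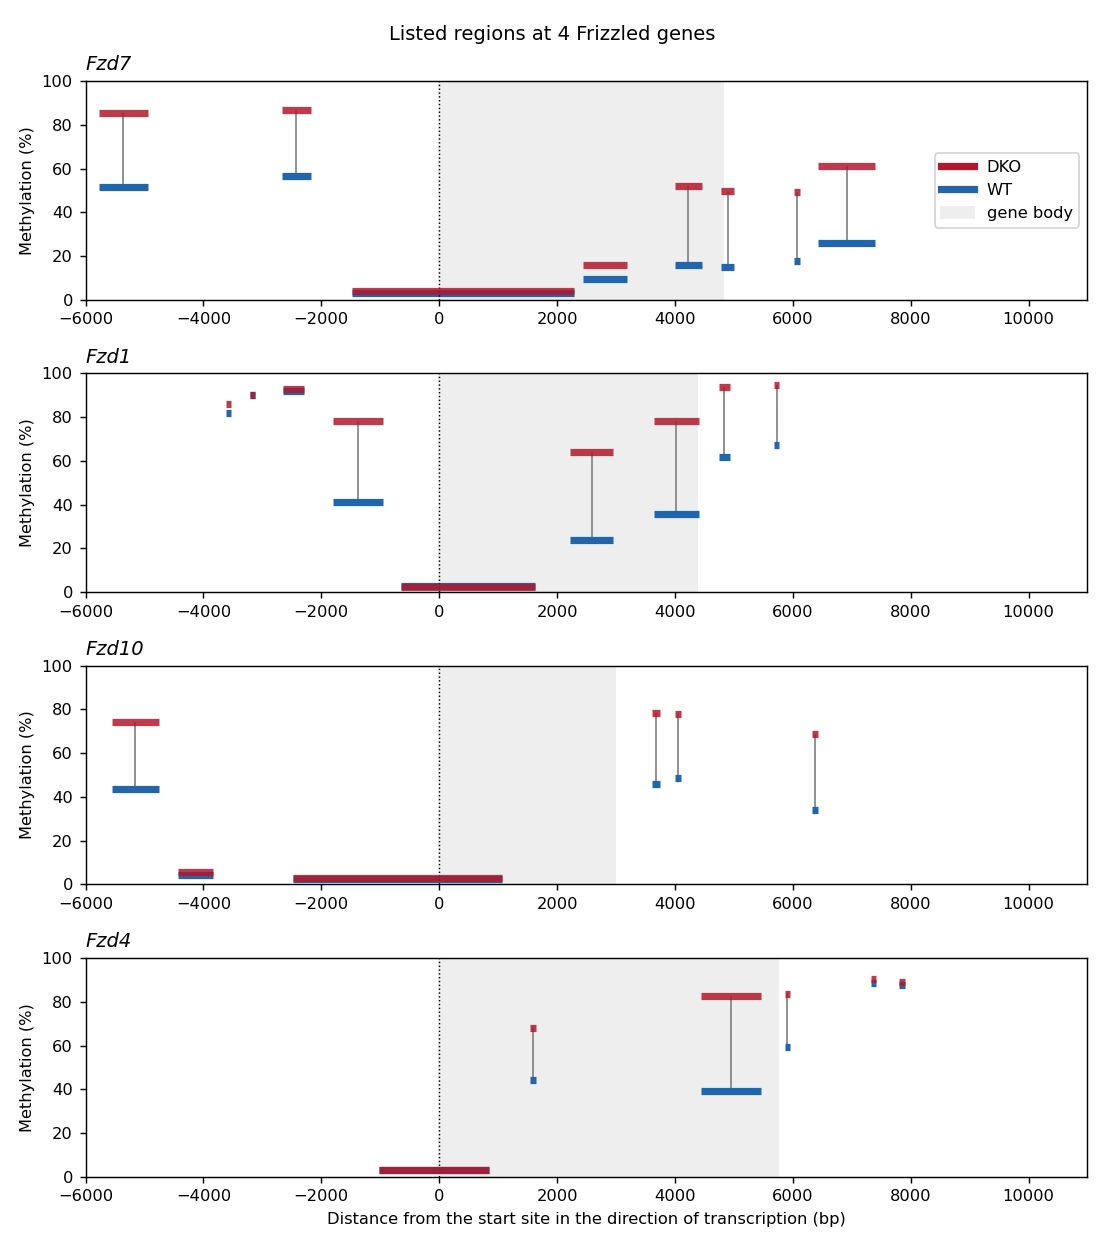
Bars are listed regions at Fzd7, Fzd1, Fzd10 and Fzd4, placed by distance from the start site in bp and by methylation level in percent, DKO in red and WT in blue, with gained regions joined by a grey line and regions under 90 bp drawn 90 bp wide. The bars over each start site lie under 4% in each genotype, and the gained regions stand on either side of them or, at Fzd4, downstream.

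Fzd2, the third of this subfamily, carried the longest low region of the family, 4280 bp with 419 positions, over most of the gene at 3.62% in the DKO and 3.12% in the WT in the authors' deposited table. Its 2 gained regions were small and lay at the end with the higher coordinates. A stretch of 151 bp inside the gene (chr11:102607829-102607979, 10 positions) was at 37.9% in the DKO and 8.93% in the WT in the authors' deposited table, the lowest WT and the lowest DKO level of all 34. The other, 332 bp outside the gene with 2 positions, was at 54.9% in the DKO and 24.9% in the WT by the authors' deposited table, its wider gain at 29.98 points. Gained regions with a WT level under 20% numbered 4 of 34 in the family, this one of Fzd2 and 3 of Fzd7, against 4.02% of all gained regions.

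Fzd4, Fzd9 and Fzd10 form another subfamily, with 8 gained regions among them. Fzd4, the receptor for Norrin in retinal blood vessels, had the widest gain of the family. At chr7:89408803-89409826, inside the gene near its downstream end, the level was 82.8% in the DKO and 39.3% in the WT in the authors' deposited table, 43.5 points apart over 22 positions. The spread estimate that the table gives beside it is 3.88 points. The other regions of Fzd4 were short, with 8 positions 1566 bp past the start (68.1% in the DKO, 44.1% in the WT) and 2 positions 165 bp beyond the gene (83.4% in the DKO, 59.2% in the WT) in the authors' deposited table. Its low region also covers the start of Tmem135, a gene on the opposite strand, so the promoter level is shared by both genes. No gained region was listed upstream of Fzd4 within the window.

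Fzd10 had no gained region in its gene body. A low region of 3558 bp and 410 positions covered the start, and a second one of 594 bp lay 3837 bp upstream, at 5.50% in the DKO and 4.47% in the WT in the authors' deposited table. Just beyond that second one, 318 bp away, chr5:128595547-128596357 was at 74.4% in the DKO and 43.8% in the WT in the authors' deposited table, its longest gain, inside the long non-coding RNA gene Fzd10os. Downstream of Fzd10, 3 regions of 6, 2 and 2 positions were at 68.8% to 78.6% in the DKO and 34.04% to 48.9% in the WT in the authors' deposited table, and the widest of them differed by 34.7 points. Fzd9, a gene of the interval deleted in human Williams syndrome, had a single gained region of 6 positions, 715 bp downstream. It was at 57.3% in the DKO and 36.9% in the WT in the authors' deposited table, and its 20.3 points make it the gain nearest above the threshold. The body of Fzd9 held a region of 48 positions at 79.2% in the DKO and 80.1% in the WT, and a region of 35 positions 1831 bp upstream was at 70.03% in the DKO and 75.3% in the WT, both in the authors' deposited table. The difference of the upstream one, -5.29 points, has a spread estimate of 5.43 points beside it.

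Fzd5 and Fzd8 are close homologues that bind many Wnt proteins. They held 3 and 0 gained regions, against medians of 1 and 0 in coding genes of like window length. Fzd5 had 1 inside the gene, at 62.4% in the DKO and 37.0% in the WT over 11 positions (chr1:64732355-64732700) in the authors' deposited table. Its other 2 lay 4139 and 4860 bp upstream, at 89.1% and 89.7% in the DKO and at 67.3% and 60.1% in the WT in the authors' deposited table, the last of them its widest gain at 29.5 points over 14 positions. Downstream of Fzd5, 3 regions were at 82.6% to 89.1% in the DKO and 79.1% to 86.3% in the WT by the authors' deposited table, less than 5 points apart. At Fzd8 the table used here lists a single region of 5 positions, 4242 bp outside the gene, at 73.2% in the DKO and 80.04% in the WT in the authors' deposited table. That difference of -6.80 points is the largest loss in the family, beside a spread estimate of 5.05 points. No region was listed inside Fzd8 or nearer to it, so its count does not show that levels there were unchanged.

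Fzd3 and Fzd6 are the members best known for planar cell polarity in the mouse. They are the longest genes of the family, and 7 of their 10 gained regions lay inside a gene body. The body makes up most of each window, 70023 of 80023 bp at Fzd3 and 32044 of 42044 bp at Fzd6. Fzd6 was at 3.33% in the DKO and 3.03% in the WT across its lower-coordinate end in the authors' deposited table, over 951 bp and 170 positions. Its widest gain was inside the gene at chr15:39032335-39032607, with 74.8% in the DKO and 36.1% in the WT over 4 positions in the authors' deposited table, or 38.7 points. The gained region with most positions, 20, at chr15:39009336-39010253, was at 74.7% in the DKO and 46.8% in the WT by the authors' deposited table. Between these, a run of 6 regions inside Fzd6 from chr15:39011330 to 39017201 was at 81.1% to 93.7% in the DKO and 79.05% to 91.4% in the WT in the authors' deposited table, at most 2.52 points apart. Outside the gene, a region within the non-coding gene Gm26704 was at 90.8% in the DKO and 66.1% in the WT, and another past the other end was at 79.8% in the DKO and 58.6% in the WT, both in the authors' deposited table.

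Fzd3 had no listed low region. For its 5 gained regions, the authors' deposited table gives 80.2% to 89.07% in the DKO and 56.4% to 68.5% in the WT. The widest, at chr14:65233559-65234379 inside the gene, was at 87.2% in the DKO and 62.8% in the WT over 21 positions in the authors' deposited table, a difference of 24.5 points. The one with most positions, 26, lay outside the gene at chr14:65265002-65265878, between Fzd3 and Fbxo16, at 80.2% in the DKO and 56.4% in the WT by the authors' deposited table. None of the 5 reached 30 points, whereas all 6 of Fzd7 did. Small losses were also listed at Fzd3. Of its 15 regions that were not gained, 2 were more than 5 points lower in the DKO, out of 4 such regions in the family, at 76.6% and 82.0% in the DKO and 82.2% and 88.1% in the WT in the authors' deposited table.

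**Figure D3:**
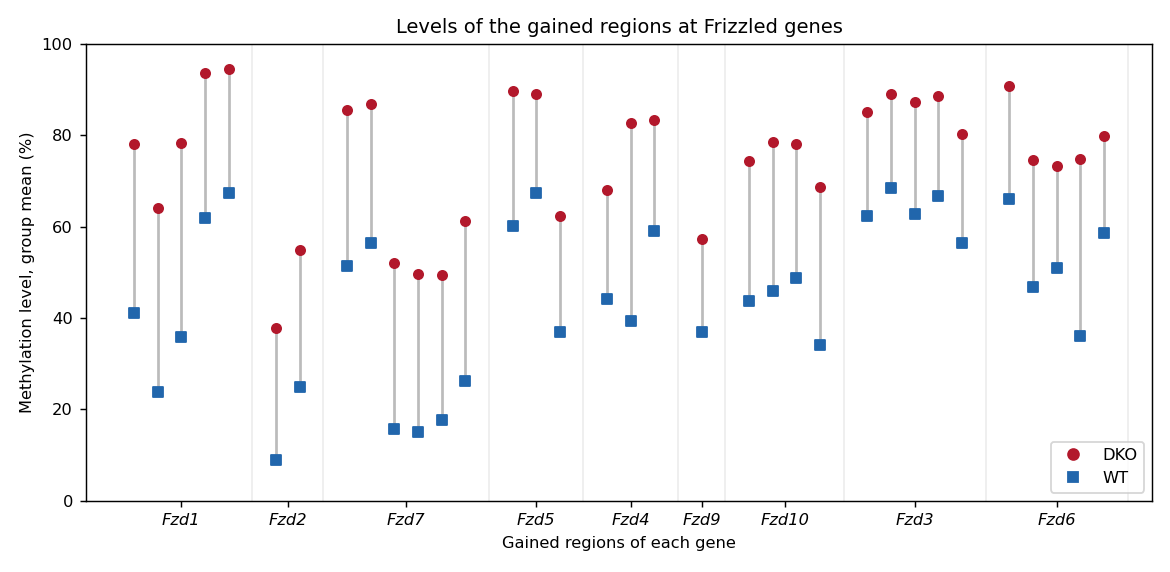
Each vertical pair is 1 of the 34 gained regions, with its mean methylation level in percent in the DKO (red circles) and the WT (blue squares), grouped by gene; within a gene the regions run along transcription for genes with a matched start site and along the chromosome for Fzd2, Fzd3 and Fzd6. WT levels are lowest at Fzd2 and Fzd7, down to 8.93%, and highest at Fzd3, up to 68.5%.

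Over the family, the 34 gained regions had a median level of 78.2% in the DKO (range 37.9% to 94.5%) and 46.4% in the WT (8.93% to 68.5%), as computed from the authors' deposited table. The 111028 gained regions of the genome had medians of 76.3% in the DKO and 45.6% in the WT in the authors' deposited table. The median levels at Frizzled genes were thus close to the general ones. The WT levels were distributed differently. A WT level of 60% or more was present in 26.5% of the 34, against 11.6% of all gained regions. Levels from 40% to 60% made up 35.3% against 52.8%, and levels under 20% made up 11.8% against 4.02%. This difference was not tested. The median gain was 29.3 points in the family and 28.4 points in the genome. The spread estimates beside the 34 regions ran from 3.31 to 5.57 points, and each gain was between 6.06 and 11.2 times its own estimate. High ratios were built in, because gained regions were chosen by a difference of at least 20 points. They do not set the gains against the spread of replicates. Neighbouring regions share an estimate in several cases. A level of at least 60% in the DKO was present in 28 of the 34, and in 88.5% of all gained regions. A single pair of positions, mostly the 2 strands of 1 CpG, made up 6 of the 34, and 11.5% of all gained regions. The 46 regions that were not gained differed by -6.80 to 6.22 points, 41 of them by less than 5 points, and no listed Frizzled region lay between 6.22 and 20.3 points. All listed regions had an extreme statistic at or below -4.02 or at or above 1.53. The gap thus holds for listed regions and does not show that intermediate differences were absent.

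**Figure D4:**
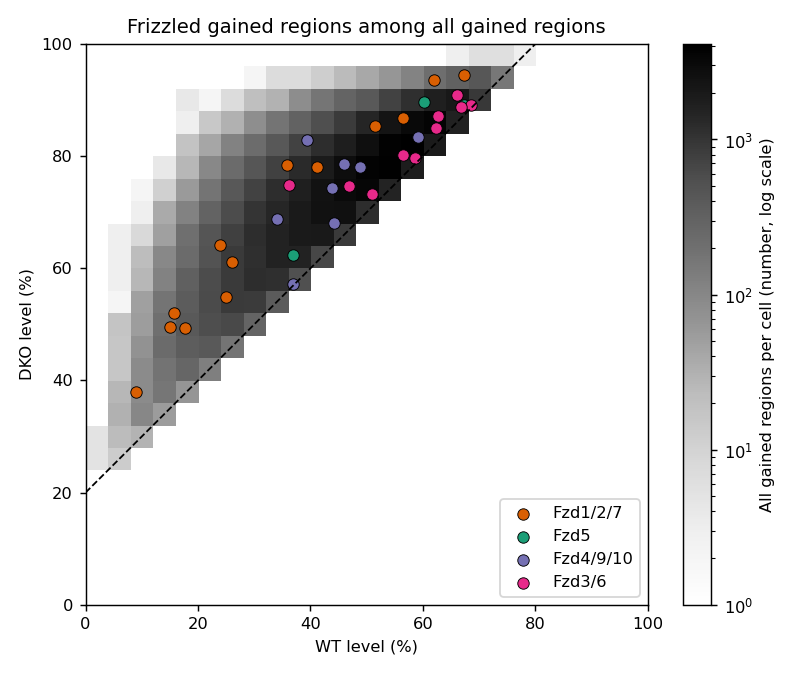
Points are the 34 gained Frizzled regions by WT level (horizontal) and DKO level (vertical) in percent, coloured by subfamily, over a grey map of the 111028 gained regions of the genome on a log scale; the dashed line marks a gain of 20 points. Regions of Fzd1, Fzd2 and Fzd7 spread from 8.93% to 67.4% in the WT, and those of Fzd3 and Fzd6 lie between 36.1% and 68.5%.

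Gained regions adjoined low regions at several members. Low regions numbered 9 in the family, in 8 of the 10 genes (all but Fzd3 and Fzd8), with levels of 2.25% to 5.50% in the DKO and 2.60% to 4.47% in the WT and differences of -0.405 to 1.04 points in the authors' deposited table. They are listed although they hardly differ, since the table holds regions whose extreme statistic is at or below -4.02 or at or above 1.53, and theirs were positive. The share of all coding genes that hold a low region was not computed, so 8 of 10 cannot be read as a family trait. A gained region was the next listed region on 11 sides of the 9 low regions of the family, in 7 genes. The gap was 300 to 3753 bp. The same count was not made over all 6453 low regions, so it cannot be called particular to Frizzled genes. At Fzd1, upstream, only 4 unlisted positions over 300 bp separated 2.58% from 78.1% in the DKO and 2.66% from 41.2% in the WT in the authors' deposited table. At Fzd7, upstream, 8 unlisted positions over 692 bp separated 3.95% from 86.8% in the DKO and 3.00% from 56.5% in the WT in the authors' deposited table. At Fzd2, 6 unlisted positions over 328 bp separated 3.62% from 37.9% in the DKO and 3.12% from 8.93% in the WT in the authors' deposited table. The step at Fzd2 was thus 34.3 points in the DKO and 5.81 points in the WT.

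Within 2 kb of a low region lay 9 of the 34 gained regions, against 5.75% of all gained regions. A comparison was also made with other short genes that hold a low region. Of the 8 Frizzled genes with a window under 20 kb, 7 had a listed low region, and all 7 held a gained region. Among 908 other coding genes with a low region and a window of 12110 to 17193 bp, 85.7% held at least 1 gained region and 32.8% held at least 3, which 5 of the 7 Frizzled genes did. Within 2 kb of a low region lay 8 of the 24 gained regions of the 7 Frizzled genes, against 52.2% of the 1812 in the windows of the other 908. The median number of gained regions was 3 in the 7 Frizzled genes and 2 in the 908. The covered share had a median of 2.95% in the 7 and 4.48% in the 908, but a mean of 7.10% in the 7 and 5.57% in the 908, with Fzd1, Fzd7 and Fzd4 above the median of the 908 and the other 4 below it. None of these differences was tested.

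Positions can be counted too, because the table carries a running index of cytosine positions. Between the first and last listed region of each window, summed over the family, 6353 positions were indexed. Gained regions held 455 of them (7.16%), low regions 2653 (41.8%), other listed regions 424 (6.67%), and 2821 (44.4%) were in no listed region. Gained positions made up 20.0% of the indexed positions at Fzd1, 11.4% at Fzd7, 7.13% at Fzd4 and 1.36% at Fzd9. Low positions made up 81.2% at Fzd2, 71.3% at Fzd7, 70.2% at Fzd10 and 60.7% at Fzd1.

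Other genes of the pathway were compared as a list of 39, of which 34 held a gained region, beside 64.4% of coding genes, and 0 held a region at least 20 points lower in the DKO, beside 0.398%. These shares of coding genes were not matched for window length, and many windows of the list are long. Coding genes with a window like that of Fzd3 held a median of 5 gained regions, against 0 for those with a window like that of Fzd7. The list includes Smo, a relative of the Frizzleds that transduces Hedgehog and not Wnt signals, and without it 33 of 38 held a gained region. All 8 other genes in the group of co-receptors and related receptors held some, as did Smo with 6. The group was led by Ror1 with 42 in a window of 359016 bp and Ror2 with 35. Ror1 and Ror2 are receptor tyrosine kinases that bind Wnt5a. Their widest gains were at 68.8% in the DKO and 17.8% in the WT for Ror1 and at 69.7% in the DKO and 16.3% in the WT for Ror2 in the authors' deposited table. Of the 9 genes of receptor turnover and its R-spondin control, 5 held gained regions and 4 did not, and the 4 were the ligands Rspo1, Rspo2, Rspo3 and Rspo4. Lgr4 had 31 and Lgr6 had 25, and both are receptors for R-spondins. Znrf3, a ligase that removes Frizzled receptors from the cell surface, also had 25, over 1.71% of its window, against 10.1% for Lgr6. A region inside Lgr4 was at 77.3% in the DKO and 21.9% in the WT, and 1 inside Lgr6 was at 75.4% in the DKO and 23.8% in the WT, in the authors' deposited table.

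Secreted Frizzled-related proteins, soluble antagonists that carry a Frizzled-type cysteine-rich domain, held gained regions in 4 of 5 genes, with 4 in Sfrp1 and 2 in Sfrp2. All 9 genes of Dishevelled and the destruction complex held some, with 13 in Gsk3b, a kinase that marks beta-catenin for removal, and 11 in Apc, a scaffold of that complex. All 7 planar cell polarity genes did, with 38 in Prickle2 and 25 in Celsr1. The widest gain in Celsr1, an atypical cadherin, was at 78.7% in the DKO and 31.5% in the WT in the authors' deposited table. By covered share, the median was 3.37% over the 10 Frizzled genes, 4.26% over the 39 and 1.29% over all coding genes. Of the 39, none reached the 14.9% of Fzd7 or the 17.9% of Fzd1, and the highest was Celsr1 at 13.3%.

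**Figure D5:**
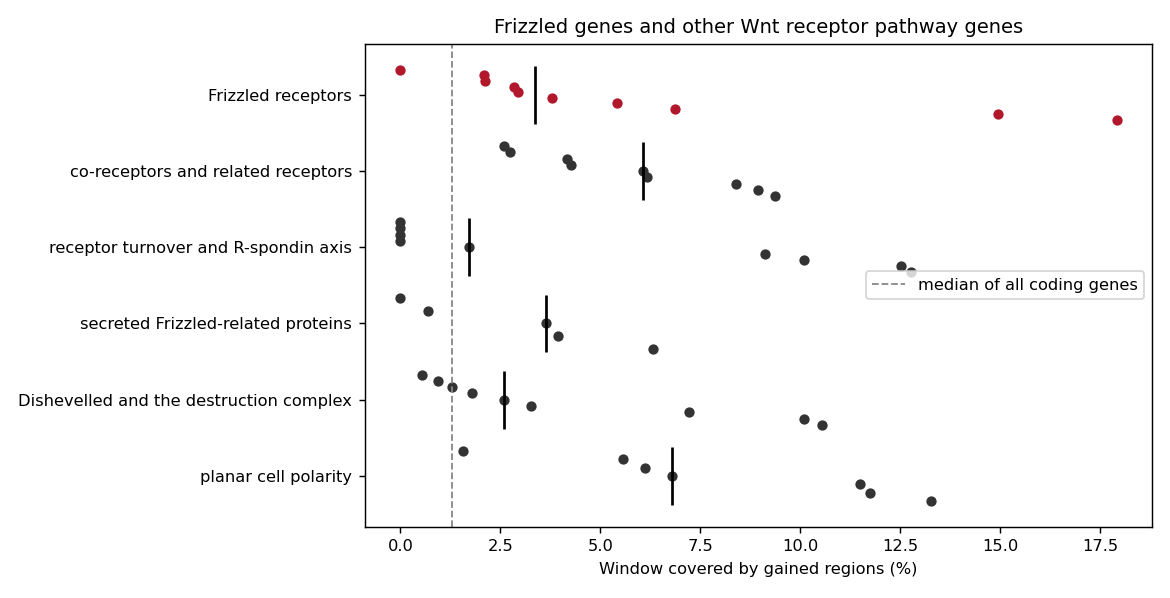
Each point is a gene, placed by the percent of its window covered by gained regions, with Frizzled genes in red and the other pathway genes in black by role; short lines are the median of each role and the dashed line is the median of all coding genes, 1.29%. Fzd1 and Fzd7 lie farthest right, at 17.9% and 14.9%, and the 4 R-spondin ligands lie at 0.

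The genes whose windows looked most like that of Fzd7 were Ap5b1, Shisa2 and Acp5, out of 3900 candidates with a window of like length. Likeness was the distance over the number of gained regions, the covered share and the mean level of the gained regions in each genotype, each divided by its SD over coding genes with a gained region. Fzd7 had 6 gained regions over 14.9% of its window, at a mean of 64.1% in the DKO and 30.4% in the WT, from levels in the authors' deposited table. Ap5b1, the nearest, had 5 over 14.3% of its window, at a mean of 63.4% in the DKO and 32.0% in the WT by the authors' deposited table. With 2 group means per region this likeness rests on few values.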

How the data were processed

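The 4 bisulfite libraries, 2 DKO and 2 WT, were processed with Trim Galore and Bismark on GRCm38, also named mm10, per the submitters' processing notes. How regions were called and filtered is not given in the sources used here. Per the file headers, the authors' deposited table gives each region a mean level per group as a fraction, printed here in percent, a statistic used here as a score of no set scale, and a spread estimate. The table holds no counts, so depth is unknown and no interval could be given; the planned model on reads per library was therefore not run.

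Gene bounds came from a RefSeq table of GRCm38, which gives no exons, so exon and intron could not be told apart. Start sites and strand came from the RefSeq promoter table, where 6 of the 10 genes were matched. A region was counted in a window on an overlap of at least 1 base. Regions do not replicate one another, and counts over them carry no test. The members, the pathway list and the alternatives were chosen with earlier results of these data known. The 10 members were all named; of each pathway role, the 2 genes with most gained regions were named, with ties broken by covered share, as were the 3 genes most like the leading member, while Smo, Znrf3 and the 4 R-spondin genes were named after their values were seen. The low regions, their distance of 2 kb and the comparison with genes of like window length were also chosen after the data were seen. Alternatives were other gains, minimum positions or lengths, other windows, midpoints and merging of neighbours. Python 3.11.15, numpy 2.4.6, pandas 2.3.3 and matplotlib 3.10.9 were used.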

Additional observations from a re-analysis of the deposited data

How the results depend on the processing

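A minimum gain of 10 points left all counts at Frizzled genes as they were. It could not change them, because no listed Frizzled region lay between 6.22 and 20.3 points. At 30 points the family held 15 gained regions in place of 34, in 5 genes in place of 9, with a median of 0.5 per gene in place of 3.5, and Fzd7 again had 6. With at least 10 positions per region there were 20 gained regions and a median of 1.5, with at least 100 bp the median was 2, and in gene bodies alone there were 15 with a median of 1.5. Fzd8 stayed at 0 in all 8 alternatives. Its window holds only 1 listed region, which is lower in the DKO, so only the wider window could have changed that count. Fzd7 led alone only under the other minimum gains. It tied with Fzd1 and Fzd3 at 4 with at least 10 positions, with Fzd3 and Fzd6 at 5 with at least 100 bp, and with Fzd1, Fzd3 and Fzd6 at 5 by midpoints. Fzd3 led with 4 in gene bodies, Fzd1 with 8 in windows of 10 kb each side, and Fzd3 and Fzd6 with 5 after neighbours within 500 bp were merged. With 5 kb in place of 2 kb, 24 gained regions counted as close to a low region in place of 9, beside 9.56% of all gained regions. Windows reach 5 kb from the gene, so most of a short window that holds a low region lies within that distance. The share at 5 kb was not computed for genes of like window length, so no enrichment can be read from these values. Of 160 values for single genes, 46 moved by more than 1.5 times. The 160 include the values at 10 points, which could not move. They also include those of Fzd8, which only the wider window could have changed. The share that moved therefore overstates how stable single genes were. No paired analysis was possible because the table gives no value per library, and replicates could not be left out for the same reason. Regions of 2 positions rest on the fewest cytosines, and without read depth the error of a level is unknown.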
